A study of Mus musculus with 18 samples.

Results

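The genes described here encode parts of the focal adhesion, Vcl, Tln1, Tns1, Flna, Actn1, Zyx, Csrp1 and Pdlim7, and the intermediate filament proteins Des and Vim. They were chosen by their symbols and roles, but with earlier results of these data known. The shares of all genes tested that stand beside their counts are therefore descriptions. They are 10 of the 35655 genes in the count table. All 10 had at least 10 counts in each of the 18 libraries and passed the filter on low counts, which left 10312 genes to test.

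Each library came from carotid arteries of WT mice of the strain C57/BL6, and no group carried a transgene. According to the study's methods the animals were young adult males and the vessel was injured with a wire. The methods describe the tissue as cut out of sections by laser so that it held the outer elastic lamina and the neointima. From it, 3′ ends of transcripts were sequenced (MACE). The study describes the neointima as formed after injury and gives no separate cut for day 0. The part of the wall in the day 0 libraries is therefore not stated, and its share in differences from day 0 was not tested. There were 4 libraries from day 0, labelled as taken before injury, and 4, 3, 4 and 3 libraries from injured arteries at 7, 14, 21 and 28 days. The study used the right carotid as a control side, and whether day 0 tissue came from that side of injured animals is not stated in the sources used here. It describes the samples as pooled without giving the animals per library, so the p-values measure only the spread between these libraries, which may be partly technical. The labels add a number to each library, and 3 of these numbers occur on both day 0 and day 21, with no statement of what the number marks.

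Library totals ranged from 440675 to 878310 counts. Levels are given as CPM, the counts of a gene scaled to a common library size, after TMM normalization over the genes tested. A difference between days is a log2 fold change from edgeR's quasi-likelihood fit over all 18 libraries, with its standard error (SE), and was called where its p, adjusted by the Benjamini-Hochberg method for the 10312 genes, was under 0.05. The tissue held smooth muscle as an artery should, since all 9 of its markers had counts on every day and summed to between 40032 and 45568 CPM on day 0. The day 7 libraries had sums of 1881 to 8292 CPM, those of day 14 had 8974 to 28015, those of day 21 had 10194 to 25734 and those of day 28 had 26413 to 34165. The 12 macrophage markers summed to 123 to 549 CPM on day 0 and to 4897 to 7125 on day 7, and the 8 fibroblast markers to 2611 to 3819 and 1039 to 2086. In bulk tissue such as this, fewer cells of a type and less RNA per cell cannot be told apart. Of 12 skeletal muscle markers 10 were at 0 on day 0, and their sum was highest in day 14 replicate 2 (609 CPM) and day 21 replicate 1 (462 CPM).

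**Figure D1:**
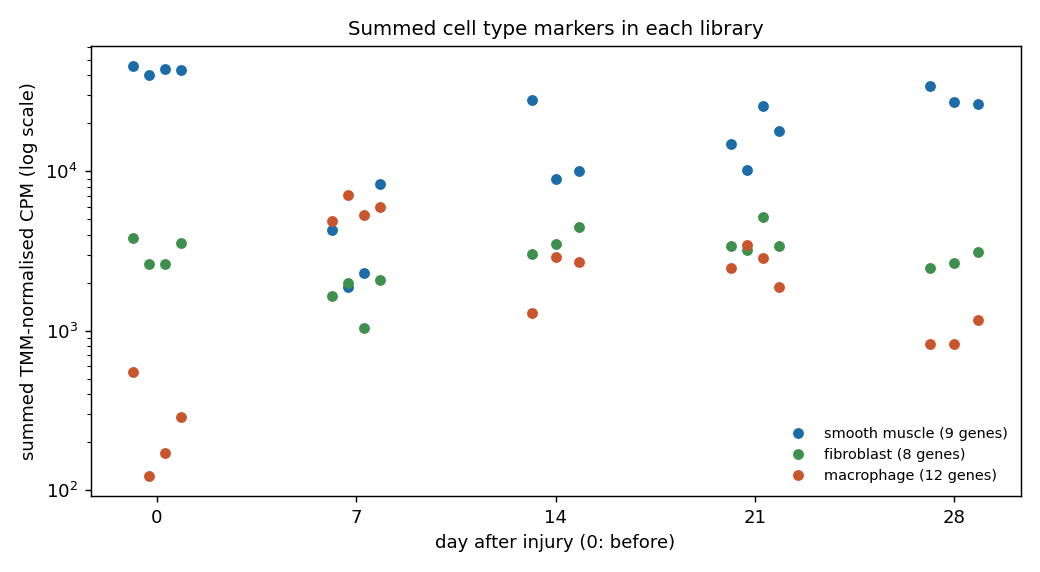
Summed TMM-normalised CPM (log axis) of the 9 smooth muscle, 8 fibroblast and 12 macrophage markers in each of the 18 libraries, by day after injury, with 1 point per library. The smooth muscle sum lay between 40032 and 45568 on day 0 and at 8292 or below on day 7, where the macrophage sum lay between 4897 and 7125.

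Focal adhesions are the sites where integrins in the cell membrane are coupled to the ends of actin filaments. Talin binds the integrin tail and recruits vinculin, α-actinin and filamin crosslink actin, and LIM domain proteins such as zyxin bind the plaque and the filaments that pull on it. In arterial smooth muscle these plaques pass contractile force to the matrix, and desmin and vimentin form the intermediate filaments that link the contractile apparatus to dense bodies and to the cell surface. Vimentin is the filament protein of mesenchymal cells in general, fibroblasts and leukocytes included, while desmin is mainly a muscle protein.

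On day 7 after injury, 9 of the 10 genes were lower than before injury and the tenth, Vim, was not detectably changed. The falls ranged from a log2 fold change of -0.81 for Tln1 to -3.32 for Des. Of all genes tested, 8.53% were called lower on that day. The median log2 fold change of the 10 genes was -1.88, beside 0.07 for all genes tested. In 8 of the 10 genes every day 7 library lay below every day 0 library, which held for 9.71% of all genes tested. On days 14, 21 and 28 this was so for 6, 8 and 2 genes, against 6.79%, 6.81% and 5.07% of all genes tested. Calls were fewer on the later days. On day 14, 5 were called lower (1.42% of all genes tested were), with a median over the 10 of -1.06. On day 21 the count was 6 (2.93%) and the median -0.88, and on day 28 it was 1 (0.369%) and the median -0.40. The medians of all genes tested on these days were 0.05, 0.07 and -0.01. The 1 difference from day 0 above 0 was that of Csrp1 on day 28 (0.04). The 4 comparisons share the day 0 libraries. Single libraries moved these counts, most on day 14, where 2 genes were called without replicate 2 of that day, 3 without its replicate 3 or day 0 replicate 2 or 4, and 8 without its replicate 1. Without day 21 replicate 1 the day 21 count was 3. With the pair of libraries highest in skeletal muscle markers left out, a setting chosen after seeing the data, the counts were 9, 2, 4 and 0 on the 4 days by edgeR (on day 28, 3 genes had an unadjusted p under 0.05), and the calls of Flna, Zyx and Tns1 on day 14, of Tns1 and Vim on day 21 and of Des on day 28 were lost. A test of any difference over the 5 days called 7 of the 10 genes (18% of all genes tested), and not Vcl (edgeR adjusted p = 0.0972), Tln1 (adjusted p = 0.0658) or Vim (adjusted p = 0.0791).

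**Figure D2:**
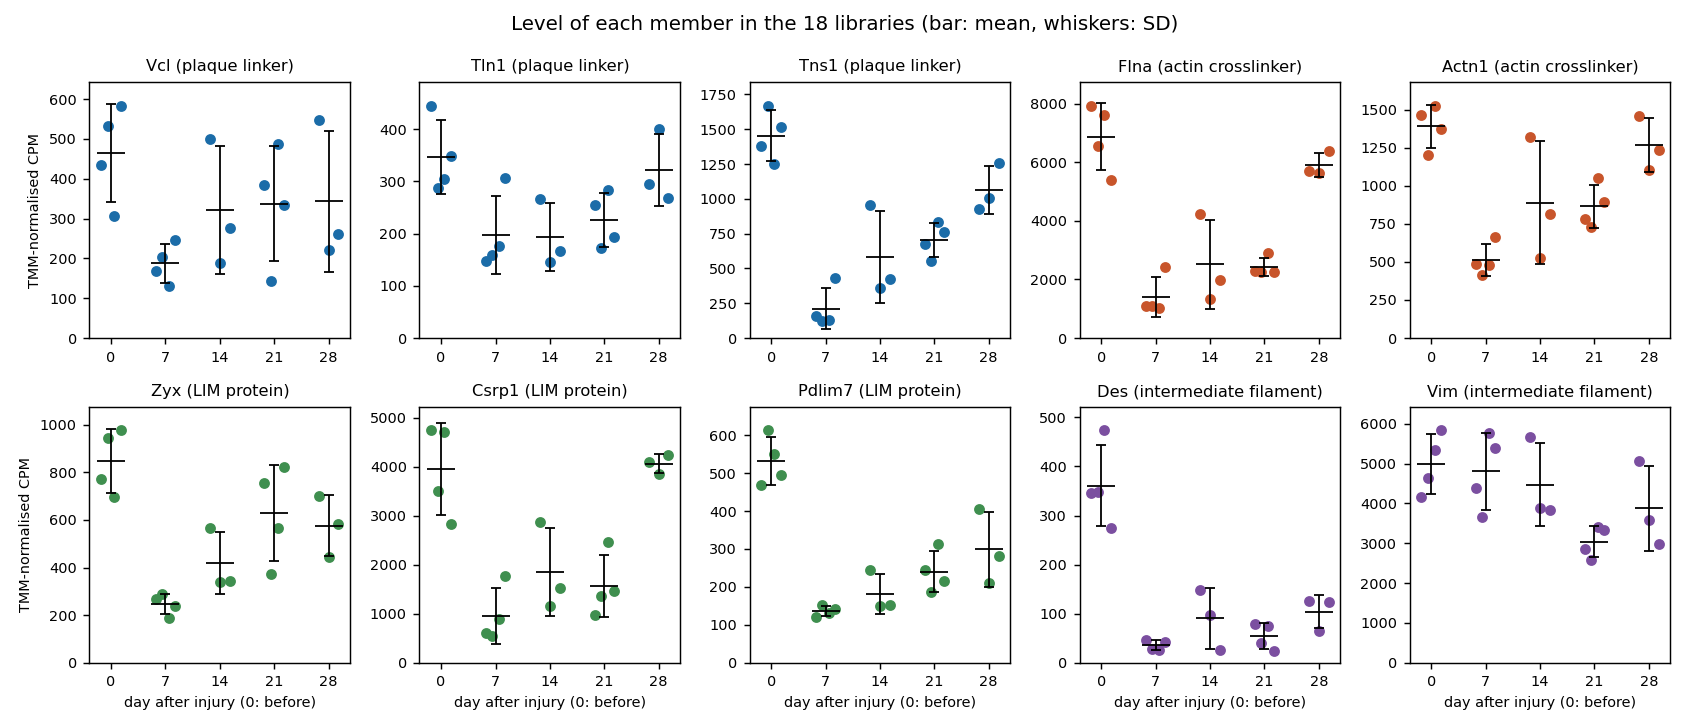
TMM-normalised CPM (linear axis from 0) of each of the 10 genes in the 18 libraries by day after injury, with 1 point per library, the mean as a bar and the SD as whiskers. All genes but Vim have their lowest or near lowest libraries on day 7, Flna and Csrp1 return to the day 0 range by day 28, and Des stays between 23.3 and 149 CPM from day 14 on.

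The start regions of the 10 genes were read from GRCm39, the build of the count table (mm39) and of all positions given here, at 250 bases before to 50 from the start of the canonical GENCODE transcript, to see whether they share a short sequence that the choice of genes did not use. A CArG box, the element bound by serum response factor, was in the window of 1 of the 10 genes, against 1.54% of 21770 promoters of that length. The letters GGAATG or CATTCC, the core of TEAD sites, were in 3 of the 10, against 14% of promoters. The letters TGACTCA or TGAGTCA, the AP-1 element, were in 1 of the 10, against 4.7%. Both strands were searched, and no match overlaps another in these windows. A match describes the letters only. The windows with a match are shown 5′ to 3′ on the gene's strand, with the matched letters in capitals, since they are where these letters occur among the 10 genes. In Vcl the capitals mark the CArG box and then GGAATG, in Flna and Des CATTCC, and in Zyx TGAGTCA.
Vcl (chr14:20979216-20979515, plus strand): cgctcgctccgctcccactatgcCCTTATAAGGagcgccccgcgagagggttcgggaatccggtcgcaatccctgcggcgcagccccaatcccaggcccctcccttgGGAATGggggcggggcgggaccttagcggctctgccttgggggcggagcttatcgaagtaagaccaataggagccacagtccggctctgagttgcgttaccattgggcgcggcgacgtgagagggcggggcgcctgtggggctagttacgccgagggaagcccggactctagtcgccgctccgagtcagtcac
Flna (chrX:73290113-73290412, minus strand): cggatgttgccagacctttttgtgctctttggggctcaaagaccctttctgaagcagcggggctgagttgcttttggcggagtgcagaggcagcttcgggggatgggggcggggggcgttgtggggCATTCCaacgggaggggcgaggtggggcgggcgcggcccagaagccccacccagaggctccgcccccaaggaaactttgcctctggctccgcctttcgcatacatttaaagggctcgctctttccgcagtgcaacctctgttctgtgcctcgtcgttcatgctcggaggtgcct
Zyx (chr6:42326450-42326749, plus strand): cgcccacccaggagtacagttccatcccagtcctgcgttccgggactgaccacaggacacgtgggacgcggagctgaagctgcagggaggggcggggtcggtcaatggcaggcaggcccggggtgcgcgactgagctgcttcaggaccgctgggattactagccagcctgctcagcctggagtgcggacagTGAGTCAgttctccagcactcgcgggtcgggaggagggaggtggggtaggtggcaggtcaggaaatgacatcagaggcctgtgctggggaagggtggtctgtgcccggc
Des (chr1:75336617-75336916, plus strand): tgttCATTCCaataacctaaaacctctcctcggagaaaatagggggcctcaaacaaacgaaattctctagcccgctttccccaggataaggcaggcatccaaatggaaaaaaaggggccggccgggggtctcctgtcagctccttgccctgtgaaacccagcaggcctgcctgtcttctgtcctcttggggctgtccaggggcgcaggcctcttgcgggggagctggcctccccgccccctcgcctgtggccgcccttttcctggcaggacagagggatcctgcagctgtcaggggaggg

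Of the proteins that link integrins to actin, Vcl and Tln1 had the smaller falls on day 7 and Tns1 the largest. Vcl encodes vinculin, which binds talin and actin, and lies on chromosome 14 from 20979449 to 21083758. It stood at 435, 533, 307 and 584 CPM in the 4 day 0 libraries and at 167, 203, 132 and 247 CPM on day 7. All day 7 libraries were below all day 0 libraries, and the log2 fold change was -1.31 (SE 0.35, edgeR adjusted p = 0.00930), a 2.48-fold lower level. Later levels were 499, 189 and 275 CPM on day 14, 386, 143, 487 and 335 on day 21 and 547, 222 and 260.5 on day 28. From day 14 on the libraries spread over the ranges of both day 0 and day 7. No later day was called against day 0, with log2 differences of -0.53, -0.46 and -0.44 on days 14, 21 and 28, and 95% intervals of -1.31 to 0.24, -1.17 to 0.26 and -1.21 to 0.34.

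Tln1 encodes talin-1, the integrin-binding protein of the plaque, on chromosome 4 from 43531513 to 43562691. Its levels were 445, 287, 304 and 349 CPM on day 0 and 148, 158, 175 and 307 CPM on day 7. The day 7 library with 307 CPM, replicate 4, lay within the day 0 range. The log2 fold change of -0.81 (SE 0.27, edgeR adjusted p = 0.0358) was called, and it did not pass when day 0 replicate 1 or 4 or day 7 replicate 1, 2 or 3 was left out, with edgeR adjusted p up to 0.114. The range over all alternatives was 0.00369 to 0.114. Tln1 was at 267, 146 and 166 CPM on day 14 and at 255, 172, 283 and 193 on day 21. These libraries all lay below day 0, but neither day was called (log2 differences of -0.84 and -0.61, edgeR adjusted p = 0.102 and 0.172). On day 28 it was at 296, 400.2 and 268 CPM, a log2 difference of -0.11 from day 0 with a 95% interval of -0.70 to 0.49.

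Tns1 encodes tensin-1, which binds integrin tails and actin at mature adhesions, on chromosome 1 from 73949390 to 74163731. It had 1377, 1670.0, 1251 and 1519.6 CPM on day 0 and 160.3, 122, 132 and 428 CPM on day 7. The day 7 level was 6.88-fold lower (log2 fold change -2.78, SE 0.35, edgeR adjusted p = 2.91e-06), although replicate 4 stood well above the other day 7 libraries. That library also had the highest smooth muscle marker sum of day 7 (8292 CPM against 1881 to 4265), and the part of smooth muscle content in its level was not tested. Tns1 was at 958, 358 and 427 CPM on day 14, 673, 553, 832 and 759 on day 21 and 929, 1004 and 1261 on day 28. All libraries of days 14 and 21 lay below day 0, and the log2 fold changes were -1.32 (SE 0.36, edgeR adjusted p = 0.0255) and -1.05 (SE 0.33, adjusted p = 0.0441). The day 28 difference of -0.45 was not called (edgeR adjusted p = 0.582). The day 14 call was lost without day 0 replicate 2 or 4 or day 14 replicate 2 or 3 (edgeR adjusted p up to 0.202), and the day 21 call without any 1 of the 8 libraries of days 0 and 21 (adjusted p of 0.0523 to 0.114).

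Flna encodes filamin A, which crosslinks actin and binds integrins, on chromosome X from 73265347 to 73293456. Its levels were 7939, 6573, 7616 and 5399 CPM on day 0 and 1092, 1080.0, 1035 and 2425 CPM on day 7, and replicate 4 was again the highest of day 7. On that day Flna fell by 2.29 on the log2 scale (SE 0.30, edgeR adjusted p = 4.97e-06), with all libraries below day 0. On day 14 it was at 4236, 1334 and 1994 CPM and on day 21 at 2285, 2268, 2889 and 2252 CPM. All of these lay below day 0, with log2 fold changes of -1.45 (SE 0.32, edgeR adjusted p = 0.00583) and -1.51 (SE 0.29, adjusted p = 0.00178). The day 14 call was lost without day 14 replicate 2 (edgeR adjusted p = 0.0677). On day 28 the libraries had 5705, 5638 and 6392 CPM, all within the day 0 range (log2 difference -0.22, 95% interval -0.86 to 0.42). Day 28 was higher than day 21 by 1.29 (SE 0.31, edgeR adjusted p = 0.0474, with 0.107% of all genes tested called higher), with all day 28 libraries above all day 21 libraries. That call passed by little. Leaving out any day 21 library, day 28 replicate 2 or 3, day 0 replicate 2, 3 or 4, day 7 replicate 1 or 2 or day 14 replicate 3 lost it, with edgeR adjusted p of 0.0530 to 0.145.

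Actn1 encodes α-actinin-1, which bundles actin filaments, on chromosome 12 from 80212233 to 80307547. It was at 1464, 1204, 1528 and 1371 CPM on day 0 and at 488, 415, 482 and 665 on day 7, where all libraries were below day 0 (log2 fold change -1.44, SE 0.24, edgeR adjusted p = 9.92e-05). On day 14 it was at 1324, 528 and 818 CPM, on day 21 at 785, 731, 1054 and 891, and on day 28 at 1459, 1106 and 1237. The day 21 libraries all lay below day 0 and the difference of -0.69 was not called (edgeR adjusted p = 0.0690). It was called in 7 of the 28 alternatives, among them DESeq2 (adjusted p = 0.0310), library totals in place of TMM, and the fits without day 14 replicate 1 or 2, and the adjusted p ranged from 0.0194 to 0.168 over all of them. Day 14 overlapped day 0 through replicate 1, and its difference of -0.64 (edgeR adjusted p = 0.163) was called without that library (adjusted p = 0.0146). Day 28 differed from day 0 by -0.13, with a 95% interval of -0.66 to 0.39.

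Of the LIM domain proteins, Zyx encodes zyxin, which moves to stretched actin filaments, on chromosome 6 from 42301575 to 42339894. Its levels were 774, 943, 698 and 978 CPM on day 0, and 267, 289, 189 and 237 CPM on day 7. The day 7 libraries were all below those of day 0 (log2 fold change -1.79, SE 0.26, edgeR adjusted p = 1.91e-05). It was at 568, 341 and 343 CPM on day 14 (log2 fold change -1.02, SE 0.28, edgeR adjusted p = 0.0243), a call lost without day 0 replicate 2 or 4 or day 14 replicate 2 or 3 (adjusted p up to 0.169). By day 21 it was at 756, 371, 566 and 821 CPM, which overlapped day 0, and day 28 was at 699, 443 and 585 CPM. Neither was called against day 0 (log2 differences of -0.43 and -0.56). Against day 7, Zyx was higher by 1.35 on day 21 (SE 0.26, edgeR adjusted p = 0.00142) and by 1.23 on day 28 (SE 0.27, adjusted p = 0.00336).

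Csrp1 encodes cysteine and glycine rich protein 1, a LIM protein that binds zyxin and α-actinin in smooth muscle, on chromosome 1 from 135647492 to 135679976. It had 4742, 3505, 4711 and 2833 CPM on day 0 and 614, 534, 883 and 1774 CPM on day 7, with a log2 fold change of -2.05 (SE 0.34, edgeR adjusted p = 0.000100). The day 14 libraries had 2860.1, 1149 and 1532 CPM, those of day 21 had 975, 1352, 2458 and 1452, and those of day 28 had 4089, 3850.1 and 4244. Day 14 overlapped day 0 in replicate 1 alone and was not called (log2 difference -1.10, edgeR adjusted p = 0.0781). It was called in 7 of 27 alternatives, DESeq2 (adjusted p = 0.0340) and the fit without replicate 1 (adjusted p = 0.0154) included. Day 21 was called (log2 fold change -1.34, SE 0.33, edgeR adjusted p = 0.0120), but leaving out day 21 replicate 1 gave an adjusted p of 0.0539. On day 28 the difference from day 0 was 0.04, with a 95% interval of -0.69 to 0.77.

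Pdlim7, also called enigma, is a PDZ and LIM domain protein of actin bundles, on chromosome 13 from 55643608 to 55662151. It was at 469, 613, 550.0 and 496 CPM on day 0 and at 119, 151, 132 and 142 CPM on day 7, the tightest day 7 group of the 10 genes relative to its mean (136 ± 13.6 CPM, SD, n = 4). The log2 fold change was -1.97 (SE 0.25, edgeR adjusted p = 3.57e-06). Later levels were 243, 148 and 153 CPM on day 14, 244, 186, 312 and 216 on day 21 and 406, 210.0 and 281 on day 28. Every injured library of every day lay below every day 0 library. The log2 fold changes on days 14 and 21 were -1.55 (SE 0.27, edgeR adjusted p = 0.000695) and -1.15 (SE 0.24, adjusted p = 0.00343). On day 28 the difference of -0.83 was not called (edgeR adjusted p = 0.125), while DESeq2 gave an adjusted p of 0.0371 and leaving out day 28 replicate 1 gave 0.0294.

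The sum of the 8 focal adhesion genes was 15867 ± 1837 CPM on day 0 and 3848 ± 1587 CPM on day 7 (SD, n = 4 each). The day 14 sum was 6952 ± 3549 CPM (SD, n = 3), that of day 21 was 6984 ± 1349 CPM (SD, n = 4) and that of day 28 was 13844 ± 864 CPM (SD, n = 3). Flna and Csrp1 weigh most in these sums, with means of 6882 and 3948 CPM on day 0 and 5911 and 4061 CPM on day 28. Against day 7, day 28 was higher for 7 of the 10 genes (6.40% of all genes tested were called higher). Their log2 differences were 2.33 for Tns1, 2.09 for Csrp1, 2.07 for Flna, 1.53 for Des, 1.31 for Actn1, 1.23 for Zyx and 1.14 for Pdlim7. In each of the 7 all day 28 libraries lay above all day 7 libraries, which held for 9.74% of all genes tested. The call of Des was lost without day 7 replicate 2 or 3 or day 28 replicate 1 or 3 (edgeR adjusted p up to 0.0705). On day 21 there were 3 calls against day 7 (4.03% of all genes tested), for Tns1 (1.74), Zyx (1.35) and Pdlim7 (0.82, edgeR adjusted p = 0.0428). The call of Pdlim7 was lost in 10 of 27 alternatives, among them the fits without day 7 replicate 1, 2 or 3 or day 21 replicate 1, 3 or 4, with edgeR adjusted p up to 0.133. Without day 7 replicate 4 the count of calls was 6, all higher, and without day 14 replicate 1 it was 6, of which 5 were higher and Vim was lower. Vim had all day 21 libraries below all day 7 libraries, with a log2 difference of -0.66 that was not called (edgeR adjusted p = 0.0544). It was called in 9 of 27 alternatives, and its adjusted p ranged from 0.00749 to 0.162 over them. With the replicate number as a block Actn1 was called in place of Pdlim7 (0.77, edgeR adjusted p = 0.0375). On day 14 Tns1 was the 1 call (1.46, edgeR adjusted p = 0.0293, beside 1.33% of all genes tested), and it was lost without day 14 replicate 1 or day 7 replicate 1, 2 or 3 (adjusted p of 0.0991 to 0.559). Without day 7 replicate 4, 4 genes were called.

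**Figure D3:**
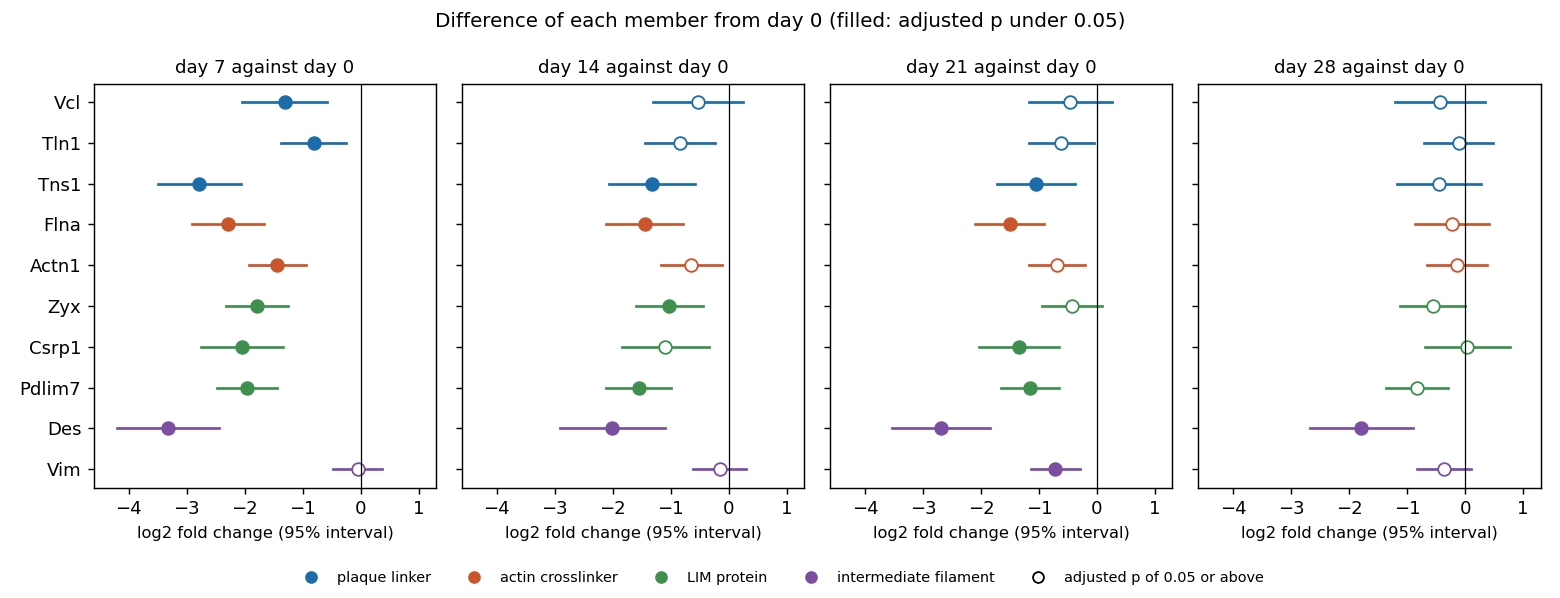
Log2 fold change of each of the 10 genes against day 0 on days 7, 14, 21 and 28, with its 95% interval from the edgeR fit. Filled points have an adjusted p under 0.05, which held for 9, 5, 6 and 1 genes, and Des is the gene filled on all 4 days.

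Of the 2 intermediate filament genes, Des was called lower on all 4 days and Vim on day 21. Des encodes desmin, on chromosome 1 from 75320511 to 75345223. It had 345, 348, 474 and 276 CPM on day 0 and 46.3, 28.8, 25.9 and 42.0 CPM on day 7, the largest fall of the 10 genes on that day (log2 fold change -3.32, SE 0.43, edgeR adjusted p = 4.48e-06). On day 14 it was at 149, 97.1 and 24.8 CPM, on day 21 at 78.1, 40.4, 75.6 and 23.3, and on day 28 at 125, 64.5 and 123. No library from an injured artery reached the lowest day 0 library. These are small numbers of reads, since Des had 10 to 93 counts in the injured libraries against 210 to 318 on day 0. These falls were called on every day, with log2 fold changes of -2.01 on day 14 (SE 0.44, edgeR adjusted p = 0.00543), -2.69 on day 21 (SE 0.41, adjusted p = 0.000155) and -1.79 on day 28 (SE 0.43, adjusted p = 0.0403). The day 28 call was lost without any 1 of the 4 day 0 libraries or without day 28 replicate 2 or 3, with adjusted p of 0.0507 to 0.162. It was also lost without the pair of libraries with the most skeletal muscle marker counts, day 14 replicate 2 and day 21 replicate 1 (edgeR adjusted p = 0.0558), a setting chosen after seeing the data. Neither library is of day 0 or day 28, so they enter that comparison only through the fit shared by all days. The log2 fold change was -1.80 without them. Desmin is also a skeletal muscle protein, and in those libraries Des stood at 97.1 and 78.1 CPM. Their part in the falls of days 14 and 21 was not tested beyond leaving them out.

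Vim encodes vimentin, on chromosome 2 from 13578738 to 13587639. It had 4155, 4643, 5336 and 5841 CPM on day 0 and 4399.9, 3653, 5769 and 5399 CPM on day 7, a log2 difference of -0.06 with a 95% interval of -0.48 to 0.37. On day 14 it was at 5682, 3886 and 3848 CPM, which also overlapped day 0 (difference -0.16, 95% interval -0.62 to 0.30). On day 21 all 4 libraries, at 2852, 2573, 3399 and 3339 CPM, lay below day 0, and Vim was 1.64-fold lower (log2 fold change -0.72, SE 0.21, edgeR adjusted p = 0.0308). This call was lost without day 0 replicate 2, 3 or 4 or day 21 replicate 1 or 2 (adjusted p of 0.0503 to 0.0858). On day 28 Vim was at 5069.9, 3579 and 2974 CPM (difference -0.37, edgeR adjusted p = 0.466).

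The counts of Des and Vim were also compared within each library, where scaling between libraries plays no part. The log2 ratio of Des to Vim was -3.59, -3.74, -3.49 and -4.40 on day 0 and -6.54, -6.95, -7.74 and -6.98 on day 7. The day 14 ratios were -5.25, -5.31 and -7.24, those of day 21 were -5.18, -5.96, -5.47 and -7.10 and those of day 28 were -5.33, -5.78 and -4.59. Every injured library was therefore below every day 0 library. Of all genes tested, 7.98% lay below day 0 in the same ratio to Vim when day 7 was compared, and 4.54%, 1.12% and 1.94% did when days 14, 21 and 28 were. Vimentin is also made by macrophages and fibroblasts, whose marker sums on days 0 and 7 are given above. On day 21 the sums were 1887 to 3449 CPM for macrophages and 3221 to 5169 CPM for fibroblasts. Single fibroblast markers went both ways, with log2 fold changes of -3.70 to 2.24 on day 7 and -2.40 to 3.95 on day 21. The part of these cells in the level of Vim was not tested.

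**Figure D4:**
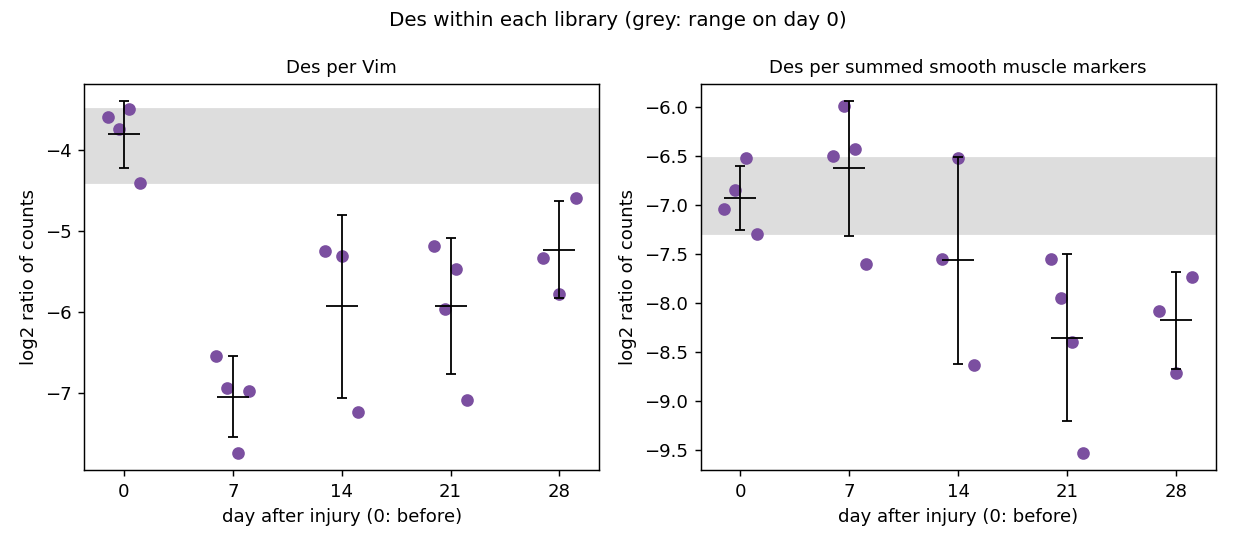
Log2 ratio of Des counts to Vim counts (left) and to the summed counts of 9 smooth muscle markers (right) in each library by day, with the mean as a bar, the SD as whiskers and the day 0 range in grey. All injured libraries lie below the grey band on the left, whereas on the right day 7 overlaps it and all libraries of days 21 and 28 lie below it.

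Since smooth muscle markers fell on day 7 as 9 of the 10 genes did, each gene was also set against the summed counts of the 9 markers within each library. On day 7 the log2 ratio lay above day 0 in all libraries for 8 of the 10 genes, but this held for 87.4% of all genes tested. The exceptions were Tns1 (mean difference 0.63) and Des (0.30), whose day 7 libraries overlapped day 0. All 9 markers were called lower on day 7, by log2 fold changes of -2.70 to -4.35, and of the 10 genes Tns1 and Des alone fell by as much as the least of these. On days 14, 21 and 28 the ratio was above day 0 for 3, 3 and 2 genes, against 52.3%, 48.7% and 17.4% of all genes tested. Des went the other way. Its ratio to the marker sum was -7.04, -6.84, -6.52 and -7.30 on day 0, -7.55, -7.94, -8.39 and -9.53 on day 21 and -8.09, -8.71 and -7.74 on day 28. All libraries of both later days lay below day 0, which held for 0.272% of all genes tested on day 21 and 1.28% on day 28. Against Myh11 alone in place of the sum, the day 21 libraries of Des overlapped day 0 and those of day 28 lay below it. On day 7 the ratio of Tns1 to Myh11 lay above day 0 in all libraries (mean difference 1.91), while that of Des overlapped it (1.58). Shares of all genes were not computed for ratios to Myh11. For Pdlim7, whose day 28 libraries also lay below day 0 in CPM, the ratio to the sum overlapped day 0 on that day (mean difference -0.31). These ratios are descriptions and were not tested.

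Among themselves the 8 focal adhesion genes had Pearson correlations of log2 CPM over the 18 libraries from 0.59 (Tln1 with Zyx) to 0.96 (Flna with Csrp1 and Flna with Actn1). Those of Des with them ran from 0.62 to 0.87, and those of Vim from -0.05 to 0.26, with 0.35 between Des and Vim. The libraries share days and smooth muscle content, so these values describe a common course and nothing more. Of all genes tested, the most like Tns1 were Myl9 (r = 0.99), Myh11 (0.98) and Tpm2 (0.98), which belong to the contractile apparatus, and the most like Actn1 were Cpe (0.97), Tagln (0.96) and Dstn (0.96). Flna was most like Csrp1 (0.96), Cpe (0.96) and Ccdc107 (0.96), and Csrp1 most like Flna, Ccdc107 (0.95) and Tpm2 (0.94). For Zyx they were Pkp4 (0.95), Ldb3 (0.95) and Dmpk (0.94), for Pdlim7 Ccni (0.95), Pbxip1 (0.94) and Atp2a2 (0.94), and for Vcl Msrb3 (0.90), Cnn3 (0.88) and Dmd (0.87). Tln1 was closest to Fam124a (0.90), Hspb8 (0.88) and Ccdc107 (0.88). Des was closest to Dpep1 (0.94), Sparcl1 (0.88) and Sorl1 (0.88) and Vim to Psmc6 (0.87), Uqcrb (0.85) and Cav1 (0.85).

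Other genes of the same families and structures were counted from lists, beside which stand the 11.3% of all genes tested that were called higher and the 8.53% called lower on day 7. Of 24 relatives of the 10 genes, 19 were tested, and 9 were called lower on day 7 (median log2 fold change -0.97). The lower ones included Csrp2, the smooth muscle relative of Csrp1, which went from 3038 ± 382 to 404 ± 198 CPM (SD, n = 4 each; log2 fold change -2.91, edgeR adjusted p = 4.15e-06). They also included the PDZ and LIM proteins Ldb3 (-3.52) and Pdlim3 (-4.26), relatives of Pdlim7. Flnc fell with its relative Flna (-1.22, edgeR adjusted p = 0.0302). Actn4, the other α-actinin of non-muscle cells, fell with Actn1 (-1.33, edgeR adjusted p = 8.17e-05), Tns2 fell with Tns1 (-1.62, adjusted p = 0.00207), and Lpp fell with its relative Zyx (-2.24, adjusted p = 0.000150). Tln2 (0.93, edgeR adjusted p = 0.375) and Tns3 (0.85, adjusted p = 0.515) were not called. The relatives Csrp3, Actn2, Actn3, Prph and Gfap had at most 14 counts in any library and were not tested.

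Of 33 other proteins of the adhesion plaque, all tested, 12 were called lower and 2 higher on day 7 (median -0.61). The 3 with the smallest p were Nexn, an actin-binding protein of muscle adhesions (-2.75, edgeR adjusted p = 2.45e-06), Tgfb1i1, the paxillin relative Hic-5 (-2.24, adjusted p = 2.67e-06), and Lims2, a partner of integrin-linked kinase (-3.74, adjusted p = 3.98e-06). The 2 higher ones were Evl (3.64, edgeR adjusted p = 0.00206) and Parvb (3.68, adjusted p = 0.00310). Both had at most 9 counts in any day 0 library. Of 13 integrins, 6 were called lower and 2 higher. Itga7, a laminin receptor of muscle, went from 303 ± 104 to 36.5 ± 21.8 CPM (SD, n = 4 each; -3.04, edgeR adjusted p = 2.84e-06), Itga8 from 2088 ± 141 to 168 ± 196 CPM (-3.62, adjusted p = 0.000143) and Itga1, a collagen receptor, from 214 ± 33.8 to 60.2 ± 18.2 CPM (-1.82, adjusted p = 3.07e-05). Itga2 and Itga11, collagen receptors as well, had at most 1 count in any day 0 library and were at least 4.86-fold and at least 2.74-fold higher on day 7, taken against 3 counts per library. On day 28 the 1 integrin still called lower was Itga1 (-1.35, edgeR adjusted p = 0.0220).

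Of 16 partners of intermediate filaments, 10 were tested, and 4 were called lower and 2 higher on day 7 (median -0.17). Dst, a plakin that ties filaments to adhesions (-1.92, edgeR adjusted p = 2.46e-06), Cryab, the desmin chaperone αB-crystallin (-1.27, adjusted p = 0.00231), and Dsp, desmoplakin (-2.91, adjusted p = 0.0105), were lower. Krt18, a keratin (2.42, edgeR adjusted p = 0.000679), and Lmnb1, lamin B1 of the nuclear lamina (3.91, adjusted p = 0.00175), were higher, Lmnb1 from at most 9 counts per day 0 library. Plec, plectin, was not called (0.12, edgeR adjusted p = 0.849). Of 13 genes of leukocyte adhesion, 12 were tested and 9 were called higher on day 7. Coro1a rose from 6.16 ± 5.51 to 262 ± 38.9 CPM and Lcp1, the leukocyte actin bundler L-plastin, from 15.1 ± 9.02 to 275 ± 120 CPM (SD, n = 4 each). Itgb2, the leukocyte integrin β2, was at least 25.9-fold higher against 3 counts per library. The median of the list was 3.33 with 6 genes at their lower bound. Macrophage markers rose on the same day (4897 to 7125 against 123 to 549 CPM). So did 4 of the 5 tested of 8 neutrophil markers, whose sum was 237 to 817 CPM on day 7 against 26.8 to 110.3 CPM on day 0, with Ly6g at 0 on both days. The part of either cell type in this list's levels was not tested.

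**Figure D5:**
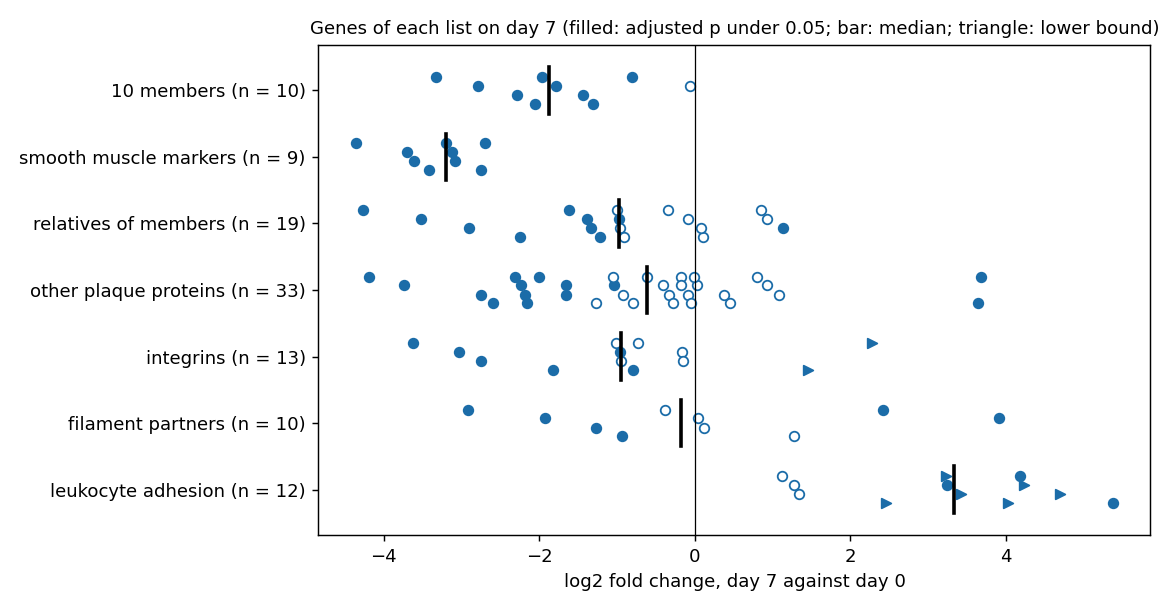
Log2 fold change on day 7 against day 0 of each tested gene of the 10 described here, the smooth muscle markers and the related lists. Points are single genes, filled where the adjusted p was under 0.05, triangles are lower bounds for genes with at most 3 counts in every day 0 library, and bars are medians, which lie at -1.88 for the 10 genes, -3.20 for the 9 smooth muscle markers and 3.33 for leukocyte adhesion.

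On day 14 edgeR called 4 relatives, 6 plaque proteins and 4 integrins lower, beside 1.42% of all genes tested, and 2 integrins and 1 filament partner higher, beside 4.80%. On day 21 it called 1 relative, 7 plaque proteins and 2 integrins lower, beside 2.93%, and 2 plaque proteins and 1 integrin higher, beside 5.92%. Of the leukocyte adhesion genes 8, 9 and 3 were called higher on days 14, 21 and 28 (0.970% of all genes tested on day 28). Their medians with 6 genes at their bound were 2.32, 2.29 and 0.22, and the fitted day 28 median without bounds was 2.31. The day 28 means of Itgal, Itgax and Rac2 were under the level of 3 counts per library and entered the bounded median as 0. Of the 9 smooth muscle markers 5 were called lower on day 14 and 6 on day 21. By day 28 the medians were -0.44 for the relatives, -0.44 for plaque proteins, -0.46 for integrins, -0.44 for filament partners and -0.51 for smooth muscle markers, beside -0.01 for all genes tested.

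In the 3 cases where a label number occurs on both day 0 and day 21, Des was lower in the day 21 library by log2 ratios of -2.16, -2.65 and -3.57, and Vim by -0.70, -0.65 and -0.81. Flna was lower by -1.52, -1.40 and -1.26. Vcl went both ways, with ratios of -0.47, 0.66 and -0.80. A fit of these 6 libraries with the number as a block called 7 of the 10 genes, Actn1 being the addition (log2 fold change -0.56, edgeR adjusted p = 0.0440). The share of all genes called in that fit is not given here. The 2.93% called lower on day 21 belongs to the fit of all 18 libraries, so this count has no share to stand beside.

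The reads of some of these genes may hold those of neighbours, since the sources used here do not say whether counting used the strand. Exons of Vcl overlap those of Ap3m1 on the opposite strand, those of Tln1 overlap Creb3, and those of Zyx overlap Epha1 and Fam131b. Exons of Zyx, Tns1, Actn1, Des and Vim also overlap long noncoding RNA genes on the opposite strand, and Pdlim7 holds the microRNA gene Mir6945 on its own strand. Flna and Csrp1 have no exon that overlaps another gene in the annotation used.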

How the data were processed

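MACE libraries of laser-cut carotid tissue from 18 samples were compared by the day in their labels. The authors deposited a table of estimated counts per gene made, per the submitters' processing notes, with Salmon 1.9.0 on mm39. A second deposited table, normalised with DESeq2 1.36.0, was not used. The annotation release and strand use of counting are not given in the sources used here. All count columns were mapped to samples by name, and the counts were taken as whole numbers, with any fraction dropped. In R 4.3.3, genes with low counts were removed (filterByExpr of edgeR 4.0.16 at its default setting by day), TMM factors were 0.926 to 1.10, and 1 quasi-likelihood model of the 5 days was fitted to the 10312 genes left, with contrasts between days. The SE was derived from the log2 fold change and its F, and 95% intervals from the test's degrees of freedom. Library totals of 440675 to 878310 counts and a biological coefficient of variation of 0.449 limit the precision. Log2 ratios within a library added 0.5 counts to each term. Genes with at most 3 counts in every day 0 library got a lower bound, their mean CPM over that of 3 counts per library. In the medians with bounds, a mean under that of 3 counts was taken as no change. Likeness was Pearson's r of log2 CPM (prior count 2).

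The 10 genes, the lists and the markers were chosen with earlier results of these data known. The genes named from each list were up to 3 in each direction with the smallest p among those called on day 7, and relatives and others named beside them were chosen after their values were seen. One gene that this rule names is not reported here. Alternatives were DESeq2 1.42.0, RLE factors, library totals alone, no or a stricter filter on low counts (10 counts), a fit of the 2 days compared, the replicate number as a block, the label number as a random block (limma 3.58.1 voom), and each library left out in turn. Same-numbered replicates did not deviate together (median r of deviations -0.01 over 33 pairs). The scripts were tested on simulated data. For day 7 against day 0 with 200 of 10312 genes changed, edgeR called 84 genes, 78 of them truly changed, and recovered 13% of 2-fold and 65% of 4-fold changes.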

Additional observations from a re-analysis of the deposited data

Results flagged for a closer look

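The level of Flna on day 7 stood out in replicate 4, at 2425 CPM against 1035 to 1092 CPM in the other day 7 libraries, and so did that of Tns1, at 428 CPM against 122 to 160.3 CPM. On day 21 replicate 3 stood out for Flna, at 2889 CPM against 2252 to 2285 CPM. These were 3 of 30 groups of 4 libraries, and chance picks out about 1 in 20 groups. The libraries concerned also had the highest smooth muscle marker sums of their days (8292 and 25734 CPM), and the part of these in the levels was not tested. Leaving out day 7 replicate 4 moved the day 7 log2 fold change of Flna from -2.29 to -2.70 and that of Tns1 from -2.78 to -3.40, and both stayed called by edgeR.

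Changes since day 0 differed between days by edgeR's test of the difference itself, which is the contrast of the 2 injured days. Between days 7 and 28 they differed by 2.33 for Tns1, 2.09 for Csrp1, 2.07 for Flna, 1.53 for Des, 1.31 for Actn1, 1.23 for Zyx and 1.14 for Pdlim7 on the log2 scale, all smaller falls on day 28. Between days 7 and 21 they differed by 1.74 for Tns1, 1.35 for Zyx and 0.82 for Pdlim7, and between days 7 and 14 by 1.46 for Tns1. Between days 21 and 28 they differed by 1.29 for Flna. With 1 library left out at a time, this last call was lost in 12 of 18 edgeR fits. The call of Pdlim7 between days 7 and 21 was lost in 6 of these fits. Those of Tns1 between days 7 and 14 and of Des between days 7 and 28 were each lost in 4.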

How the results depend on the processing

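The values below are how many of the 10 genes were called. The shares of all genes tested given above belong to the main fit. Each setting has its own share, which is not given here. These counts therefore do not separate a change in these genes from a change in the number called over all genes. No setting reversed a fold change that was called, while differences near 0 that were not called changed sign in some settings. With 1 library left out at a time, the count against day 0 ranged from 8 to 9 on day 7, 2 to 8 on day 14, 3 to 7 on day 21 and 0 to 2 on day 28, and against day 7 from 0 to 4 on day 14, 2 to 6 on day 21 and 6 to 8 on day 28. For day 28 against day 21 it ranged from 0 to 2, and over the 5 days from 7 to 9. DESeq2 called 2 genes on day 28 against day 0, and against day 7 it called 2 on day 14 and 5 on day 21. Day 21 against day 7 gave 5 calls with RLE factors, library totals alone, the stricter filter and the label number block, in each of which, as with DESeq2, 4 genes were higher and Vim was lower, and 6 without a filter, all higher. Day 14 against day 7 gave 4 without a filter and 0 with only those days in the edgeR fit (6 with an unadjusted p under 0.05). Day 28 against day 21 gave 2 with DESeq2, library totals alone, no filter, the label number block and only those days. Without day 14 replicate 2 and day 21 replicate 1, chosen after seeing the data, edgeR called 2 on day 14 and 0 on day 28 against day 0 (3 with an unadjusted p under 0.05, adjusted p of Des 0.0558), 2 for day 14 against day 7 and 0 for day 28 against day 21 (4 with an unadjusted p under 0.05, adjusted p of Flna 0.0709). The cause was not tested. With the replicate number as a block the counts were 9, 5, 6 and 1 against day 0, 1, 3 and 7 against day 7, 1 for day 28 against day 21 and 7 over the 5 days, and apart from the exchange of Pdlim7 and Actn1 on day 21 against day 7 this block changed no call. Of the fold changes of single genes with a library left out, 1351 kept their side of the threshold, 60 lost a call and 29 gained one, and under the other settings these were 676, 13 and 41. Over all genes tested the number called on day 28 against day 0 ran from 32 to 480 over all settings. Des at 10 to 93 counts in the injured libraries is the gene most limited by depth.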
